A study of Mus musculus with 12 samples.

Results

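The genes of voltage-gated, ligand-gated and store-operated ion channels were examined in CD8+ T cells, the cytotoxic lymphocytes, of spleen origin from mice of the inbred strain C57BL/6. Members were chosen by gene symbol and not by measured values: the Kcn, Scn, Cacn, Clcn, Trpc, Trpm, Trpv, Orai, Stim, Itpr, Ryr and Piezo families gave 171 of the 24421 symbols in the count tables, and these were sorted into 16 classes by symbol. Cells that received an inhibitor of EZH2 (EZH2i, 6 libraries) were compared with cells that received its solvent DMSO (6 libraries). EZH2 is the catalytic subunit of Polycomb repressive complex 2, which methylates histone H3 at repressed genes. Both groups carry the same strain, tissue and cell subtype labels, and the labels name no other genetic change. Which inhibitor was used, at what dose and for how long, and how old the animals were is not stated in these sources. Whether replicate libraries stem from different mice or cultures is not stated either, so p-values measure only how far the libraries spread, which may be technical.

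T cells open ion channels within moments of antigen recognition. The T cell receptor activates phospholipase C gamma, the product IP3 opens IP3 receptors in the endoplasmic reticulum, the calcium sensors Stim1 and Stim2 detect the emptied store, and they open Orai channels in the plasma membrane. The calcium that enters activates calcineurin and the NFAT transcription factors, while potassium leaving through the Kcna3 and Kcnn4 channels keeps the membrane negative enough for the entry to go on. Most other voltage-gated channels are known from nerve, muscle, heart or kidney.

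Polyadenylated RNA was sequenced, and library totals were 19610258 to 31206228 counts in EZH2i and 17215483 to 28092434 in DMSO. Levels are given as CPM, counts scaled to the library size after TMM normalization. Of 11727 genes with enough counts to be tested, 2266 were called at an adjusted p under 0.05, where adjusted p-values throughout are from edgeR's two-sided quasi-likelihood test with Benjamini-Hochberg adjustment. Both libraries numbered 6 stood apart from the others of their group for many channel genes, and they are named where they touch a result. Of 8 markers of CD8 T cells, all were expressed and 4 were called lower in EZH2i (Cd3g, Cd8a, Lck and Cd2), with summed levels of 3212 to 4564 CPM in EZH2i libraries and 4320 to 5667 CPM in DMSO libraries.

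Detection came first, because most channel genes were silent or nearly so in these cells. Of the 171 genes, 53 had no count in any library and 50 had a count in all 12. An EZH2i library held at least 1 count for 92.3 ± 3.27 channel genes and a DMSO library for 73.8 ± 4.58 (SD, n = 6 each). The ranges, 89 to 98 genes in EZH2i and 70 to 82 genes in DMSO, did not overlap. After every library was thinned to 17215483 counts, the numbers were 88 ± 1.26 in EZH2i and 71.3 ± 2.5 in DMSO. Over all symbols of the tables, the thinned share with a count was 57.9% ± 0.274 in EZH2i and 54.8% ± 0.782 in DMSO, a smaller gap in proportion. The comparison was not matched for level, and a smaller part of the channel genes had enough counts for a test (29.2%, against 48.0% of all symbols). Before thinning, counts were found in EZH2i alone for 14 channel genes and in DMSO alone for 5. The same split was not computed after thinning or over all symbols, so it is not read as particular to channels. In bulk RNA, fewer cells that express a gene and less RNA per cell cannot be told apart.

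Enough counts for a test were found for 50 of the 171 genes (29.2%, against 48.0% of all symbols). Among these, 13 were called higher in EZH2i (26.0%) and 0 lower, where the shares over all tested genes were 13.3% higher and 6.05% lower. At an unadjusted p under 0.05 there were 23 of either direction. DESeq2 called 15 higher and 2 lower (Kcnn4 and Piezo1). The shares over all tested genes were not computed for the unadjusted p or for DESeq2, so these counts are not read as particular to channels. With the replicate number as a block, 23 were called higher and 7 lower, against 24.7% higher and 24.3% lower over all tested genes, so the count of 0 lower holds for the unblocked fit. The log2 fold change, EZH2i over DMSO, was positive for 37 of the 50 and negative for 13, with a median of 0.17 against -0.01 over all tested genes. In 7 of the 50 every EZH2i library lay above every DMSO library (7.50% of all tested genes did so), and in none did every EZH2i library lie below (2.74% of all tested genes).

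The share called depended on the level. Among the 2932 tested genes with the lowest mean CPM, up to 8.61 CPM, 10 of 25 channel genes were called higher (40.0%), against 30.0% of all genes in that range. Above it, 3 of 25 were called higher (12%), against 7.71% of all genes there. A low gene can pass the count filter mainly through EZH2i libraries. This can apply to some of the 10 tested channel genes with fewer than 6 DMSO libraries above 0.409 CPM before TMM scaling. For Kcnj1, EZH2i library 6 was also below this limit, so it did not pass through EZH2i alone. For Kcnc1 the DMSO median was well above the limit, so that gene was not low throughout DMSO. Of these 10, 6 were called higher, among them Trpv4, Ryr1, Kcnc1 and Kcnj1, and of the other 40, 7 were called. The shares over all tested genes split in this way were not computed, so these counts are not read as particular to channel genes.

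**Figure D1:**
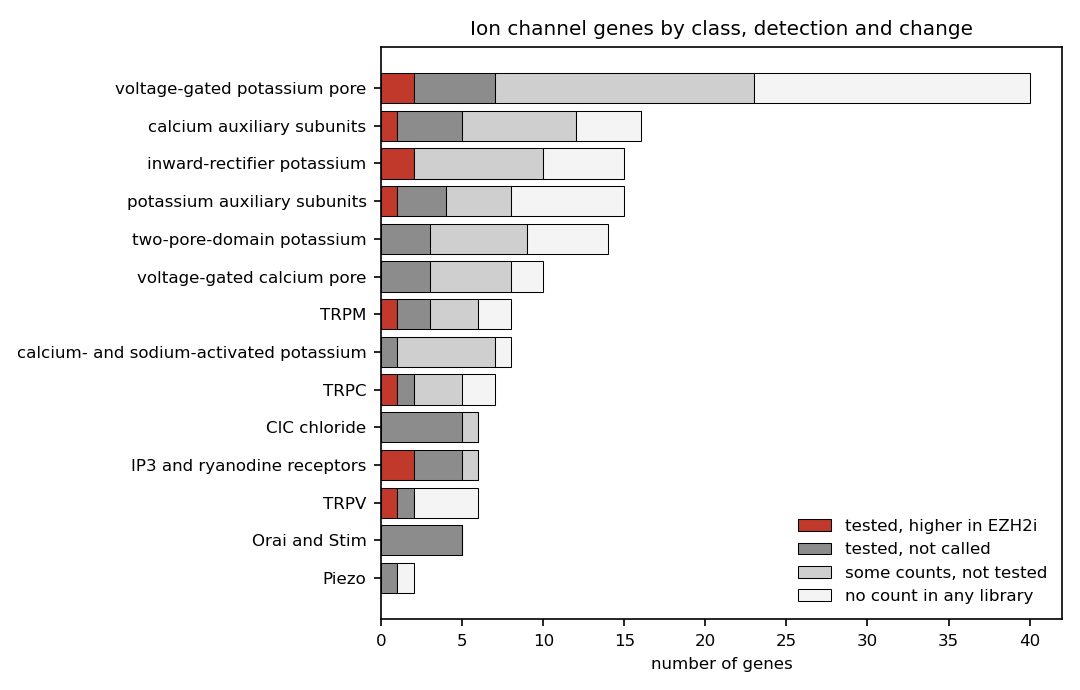
Number of ion channel genes in each class (horizontal axis), split into genes called higher in EZH2i, tested but not called, counted but not tested, and with no count in any library. The voltage-gated potassium pore class is the largest with 40 genes, of which 7 were tested and 2 called higher; all 5 Orai and Stim genes were tested and none was called. The sodium channel classes are not drawn.

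**Figure D2:**
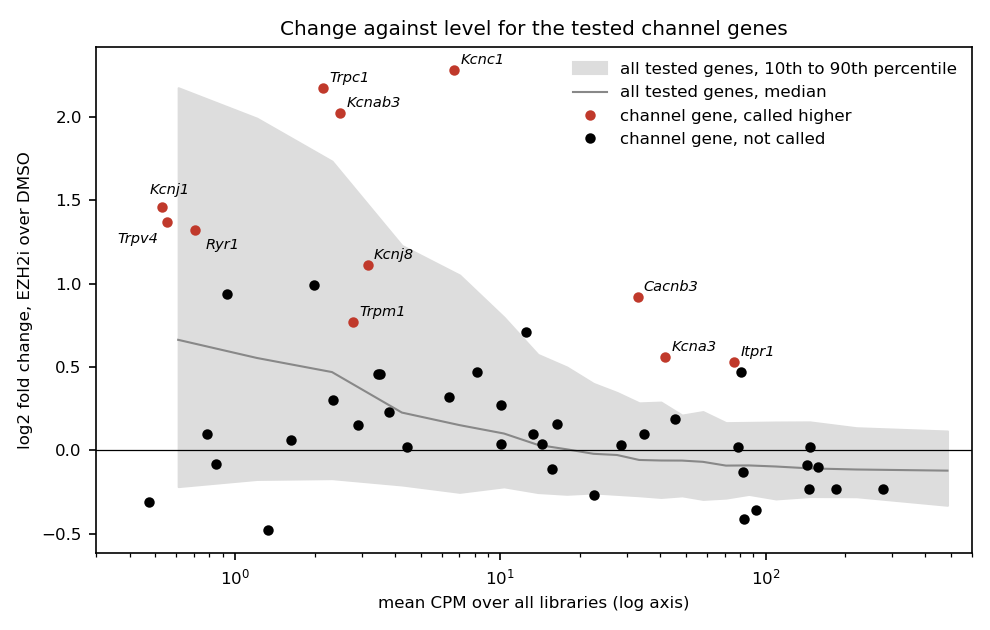
Log2 fold change, EZH2i over DMSO (vertical axis), against mean CPM over all libraries (horizontal log axis) for the tested channel genes outside the sodium channel classes; the grey band and line give the 10th to 90th percentile and the median of all tested genes in 20 bins of equal size. In the lowest bin the median of all genes was 0.66, in the highest -0.12, and most of the genes called higher lie at low CPM.

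Voltage-gated potassium channels form the largest class, with 40 pore genes. Of these 23 had a count somewhere, 7 were tested, and all 7 had a positive log2 fold change. Kcna3 and Kcnc1 rose, and 0 genes of the class fell. The summed level of the class was 104 ± 13.6 CPM in EZH2i and 66.9 ± 7.8 CPM in DMSO (SD, n = 6 each).

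Kcna3 (chr3:107036169-107038070 in GRCm38, plus strand) encodes the main voltage-gated potassium channel of T cells. Its lowest, median and highest levels were 43.5, 50.1 and 56.5 CPM in EZH2i, against 28.3, 32.6 and 40.3 CPM in DMSO. Every EZH2i library was above every DMSO library, libraries 6 included. Its log2 fold change was 0.56 (SE 0.096, adjusted p = 0.00115), and it was called whichever single library was left out. Per kb of exon, Kcna3 stood at 26.2 CPM per kb in EZH2i and 17.7 CPM per kb in DMSO, the fourth highest level of all channel genes.

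Kcnc1 (chr7:46396497-46438704, plus strand) encodes a fast potassium channel best known from rapidly firing neurons. It had a lowest level of 2.69, a median of 12.6 and a highest of 14.5 CPM in EZH2i, against 0.417, 2.35 and 3.55 CPM in DMSO. Library 6 was the lowest of each group. The other 5 EZH2i libraries, at 11.1 CPM or more, lay far above all DMSO libraries, while EZH2i library 6 lay within the DMSO range. This gave a log2 fold change of 2.28 (SE 0.42, adjusted p = 0.00207), and 2.28 also without both libraries numbered 6 (adjusted p = 2.13e-09).

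The 5 other tested pore genes of this class were not called. Kcna2, the neighbour of Kcna3 on chromosome 3 at a distance of 63.1 kb and chosen here after its values were seen, had 15.5 ± 6.61 CPM in EZH2i and 9.42 ± 4.55 CPM in DMSO (log2 fold change 0.71, adjusted p = 0.31). Kcna10, a further 68.1 kb along, had no count in any library. With the replicate number as a block, Kcna2 (adjusted p = 2.53e-05), Kcnd1 (adjusted p = 0.000469) and Kcnh2 (adjusted p = 0.00193) were also called higher.

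Among the 15 potassium auxiliary subunits, 4 were tested and Kcnab3 rose. Kcnab3 (chr11:69326258-69333042, plus strand) encodes a cytoplasmic beta subunit of voltage-gated potassium channels. The lowest, median and highest levels were 1.39, 4.5 and 4.95 CPM in EZH2i, against 0.595, 1.01 and 1.26 CPM in DMSO. The groups did not overlap, though EZH2i library 6 came close to the highest DMSO library. In the fit the log2 fold change was 2.02 (SE 0.28, adjusted p = 0.00027). An antisense gene, Kcnab3os, covers 5.13% of the Kcnab3 exons, and whether strand was used in the counting is not stated.

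Kcnab2, a related beta subunit, was the channel gene with the highest level per length, at 45.8 CPM per kb in EZH2i and 53.6 CPM per kb in DMSO. It had 226, 241 and 338 CPM in EZH2i (lowest, median, highest), against 267, 286 and 386 CPM in DMSO. Library 6 was the highest of each group, and the remaining 5 EZH2i libraries were all below the DMSO libraries. On the log2 scale the change was -0.23 (adjusted p = 0.199), and the gene was called lower with the replicate block (adjusted p = 0.00145) and without EZH2i library 6 (adjusted p = 0.0162). In the blocked fit Kcnmb4 and Kcnip2, auxiliary subunits of calcium-activated and voltage-gated potassium channels, were called higher (adjusted p = 0.00986 and adjusted p = 0.0226).

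Of 15 inward-rectifier potassium channel genes only 2 had enough counts to test, and both rose. Both lie in the range up to 8.61 CPM, where 30.0% of all tested genes were called higher. Kcnj1 is also among the tested genes with fewer than 6 DMSO libraries above the filter limit. No trait of the class is read from 2 genes. Kcnj8 (chr6:142564837-142571614, minus strand), the pore of an ATP-sensitive potassium channel known from vascular smooth muscle, had 2.57, 4.19 and 6.42 CPM in EZH2i (lowest, median, highest), against 1.26, 2.13 and 2.54 CPM in DMSO. All EZH2i libraries were above all DMSO libraries, by a narrow margin at EZH2i library 6. The log2 fold change was 1.11 (SE 0.23, adjusted p = 0.00384).

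Kcnj1 (chr9:32372493-32399197, plus strand), a potassium channel of the kidney tubule, was low in both groups. The lowest, median and highest levels were 0.31, 0.781 and 1.21 CPM in EZH2i, against 0.0595, 0.247 and 0.508 CPM in DMSO, from 121 counts in EZH2i and 37 in DMSO. EZH2i library 6 lay within the DMSO range. Its log2 fold change was 1.46 (SE 0.43, adjusted p = 0.0314). The call was lost when EZH2i library 1, 2, 3, 4 or 5 or DMSO library 2 or 4 was left out, with adjusted p up to 0.0754. Kcnj5, its neighbour at 28.1 kb and chosen here after its values were seen, had 10 counts in EZH2i and 0 in DMSO. The tested channel neighbours of other genes that rose, Kcna2 beside Kcna3 and Kcnk6 beside Ryr1, were not called.

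The calcium-activated potassium channel Kcnn4, which opens when calcium enters an activated T cell, was the only tested gene among 8 calcium- and sodium-activated potassium channels. It had the second highest level per length, 33.2 CPM per kb in EZH2i and 39 CPM per kb in DMSO. The lowest, median and highest values were 132, 176 and 190 CPM in EZH2i, against 173, 203 and 214 CPM in DMSO. EZH2i was lower for each of the 6 replicate numbers, and the groups overlapped because DMSO library 6 was low. This gave a log2 fold change of -0.23 (SE 0.087, adjusted p = 0.0811). It was called lower with the replicate block (adjusted p = 0.00113), without DMSO library 6 (adjusted p = 0.0371) and by DESeq2 (adjusted p = 0.0291).

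The Kcnk genes encode leak potassium channels that set the resting potential. Of 14 genes, 3 were tested and 0 called. Kcnk5 had 37.8, 40.3 and 90.7 CPM in EZH2i (lowest, median, highest), against 33, 35.6 and 80 CPM in DMSO. Both highest values were from library 6, and the groups overlapped. The log2 fold change of Kcnk5 was 0.19 (SE 0.27, adjusted p = 0.684), it was -0.09 without EZH2i library 6 (adjusted p = 0.773), and it was called higher in the blocked fit (adjusted p = 0.0189) and without both libraries numbered 6 (log2 fold change 0.19, adjusted p = 0.0307). Kcnk7, a family member that is not known to carry a current alone, averaged 1.12 ± 0.255 CPM in EZH2i and 1.55 ± 0.257 CPM in DMSO (SD, n = 6 each). Its log2 fold change of -0.48 was not called (adjusted p = 0.0996) except with the block (adjusted p = 0.0486).

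**Figure D3:**
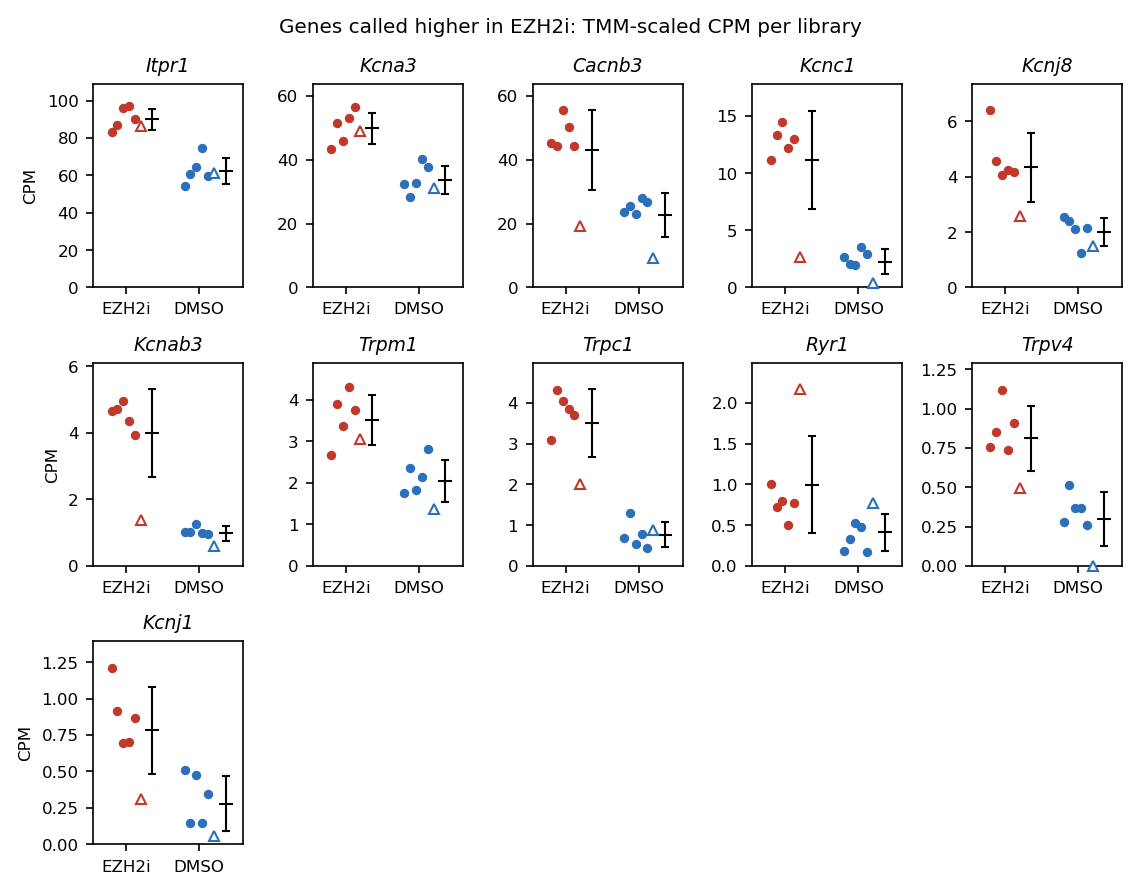
TMM-scaled CPM (vertical axis) in each EZH2i library (left) and DMSO library (right) for 11 of the 13 genes called higher; circles are libraries 1 to 5, open triangles library 6, and black bars the mean and SD of 6. Kcna3 and Itpr1 separate without overlap, whereas for Kcnc1 and Cacnb3 the open triangle of EZH2i lies among or below the DMSO circles.

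The genes of store-operated calcium entry were all expressed. All 5 Orai and Stim genes were tested and 0 were called, with summed levels of 354 ± 56.8 CPM in EZH2i and 387 ± 47.6 CPM in DMSO (SD, n = 6 each). Orai2, a subunit of the plasma membrane channel, had 54.5, 84.8 and 93.2 CPM in EZH2i (lowest, median, highest), against 69.1, 106 and 129 CPM in DMSO. EZH2i was the lower library for each of the 6 replicate numbers, and only DMSO library 6 fell into the EZH2i range. In the fit the log2 fold change was -0.36 (SE 0.15, adjusted p = 0.107), with a call in the blocked fit (adjusted p = 4.72e-05) and without DMSO library 6 (adjusted p = 0.0181).

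Orai1, the main pore subunit in T cells, averaged 20.4 ± 2.57 CPM in EZH2i and 24.7 ± 5.35 CPM in DMSO, a log2 fold change of -0.27 (adjusted p = 0.212, and 0.0177 with the block). Orai3 averaged 35.9 ± 1.62 CPM in EZH2i and 33.4 ± 2.81 CPM in DMSO (adjusted p = 0.355). The sensor Stim1 averaged 138 ± 26.9 CPM in EZH2i and 148 ± 21.9 CPM in DMSO (adjusted p = 0.709), and Stim2 79.2 ± 14.9 CPM in EZH2i and 78.3 ± 4.42 CPM in DMSO (adjusted p = 0.946; SD, n = 6 for each). For both sensors the difference in means was smaller than the SD of either group. For Stim1, library 6 was the lowest of each group.

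Release channels empty the internal store. Of the 3 IP3 receptors and 3 ryanodine receptors, 5 were tested, all with a positive log2 fold change, and Itpr1 and Ryr1 rose. Itpr1 (chr6:108213096-108551109, plus strand), an IP3 receptor, had 83.4, 88.4 and 96.8 CPM in EZH2i (lowest, median, highest), against 54, 60.9 and 74.4 CPM in DMSO. All EZH2i libraries were above all DMSO libraries, and libraries 6 were not at the edge of either group. On the log2 scale the change was 0.53 (SE 0.077, adjusted p = 0.000356).

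Itpr2 had 55.3, 101 and 106 CPM in EZH2i (lowest, median, highest), against 46, 69.2 and 86.8 CPM in DMSO. Apart from library 6, the lowest of each group, the EZH2i libraries were all above the DMSO libraries. The log2 fold change of 0.47 (SE 0.17) just missed the call (adjusted p = 0.0648). The gene was called higher with the block (adjusted p = 1e-05), by DESeq2 (adjusted p = 0.036), with upper-quartile scaling (adjusted p = 0.0475), without EZH2i library 6 (adjusted p = 0.00238) and without DMSO library 4 (adjusted p = 0.0353). Itpr3, the IP3 receptor with the highest level per length (16.4 CPM per kb in EZH2i and 16.2 CPM per kb in DMSO), averaged 148 ± 18.1 CPM in EZH2i and 146 ± 17.1 CPM in DMSO, with an adjusted p of 0.935.

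Ryr1 (chr7:29003344-29125179, minus strand), the calcium release channel of skeletal muscle, was much lower per length, at 0.0457 CPM per kb in EZH2i and 0.0188 CPM per kb in DMSO. The lowest, median and highest levels were 0.505, 0.79 and 2.17 CPM in EZH2i, against 0.173, 0.406 and 0.774 CPM in DMSO. Libraries 6 were the highest of both groups, and the groups overlapped. The log2 fold change was 1.32 (SE 0.43, adjusted p = 0.0462), the weakest of the 13 calls. It was 0.92 without EZH2i library 6 (adjusted p = 0.0578), and the call was kept among the single omissions only without EZH2i library 4 or DMSO library 6, with adjusted p up to 0.0972. It was also lost when no low-count filter was used (adjusted p = 0.0594). Antisense genes overlap Ryr1 exons by up to 3.96%. Ryr3 averaged 1.25 ± 0.565 CPM in EZH2i and 0.623 ± 0.301 CPM in DMSO (log2 fold change 0.94, adjusted p = 0.136), with a call in the blocked fit (adjusted p = 0.0171) and without EZH2i library 6 (adjusted p = 0.0477). Ryr2, the heart isoform, had 13 counts in all EZH2i libraries and 17 in all DMSO libraries.

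Voltage-gated calcium channel pores were sparse. Of 10 genes 8 had a count, 3 were tested and 0 called, and the class summed to 6.89 ± 0.433 CPM in EZH2i and 5.35 ± 0.816 CPM in DMSO. Cacna1a, a neuronal pore and the tested member with the smallest p, averaged 4.13 ± 0.396 CPM in EZH2i and 3.52 ± 0.598 CPM in DMSO (log2 fold change 0.23, adjusted p = 0.264; SD, n = 6 each). Cacna1s, the skeletal muscle pore, had 72 counts in EZH2i and 41 in DMSO, and the antisense gene Gm37759 covers 20% of its exons. Cacna1f, the retinal pore, had no count in any library.

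Cacna1g, the pore of a low-voltage-activated calcium channel, fell below the count filter but separated completely. It had 8 to 29 counts per EZH2i library (94 in all) and 0 to 2 per DMSO library (2 in all, both in library 2). The ratio of summed counts relative to library size was 39.3, with an exact 95% interval of 10.6 to 329 that covers counting error only. The gene is named because its groups did not overlap, so the ratio describes a gene picked on this outcome and is not a test.

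Cacnb3 was the 1 gene that rose among 16 calcium channel auxiliary subunits, of which 5 were tested. Cacnb3 (chr15:98630840-98644529, plus strand) encodes a cytoplasmic beta subunit and is known in mouse CD8+ T cells. The lowest, median and highest levels were 19.2, 44.8 and 55.5 CPM in EZH2i, against 9.17, 24.5 and 28.1 CPM in DMSO. Library 6 was far below the others of its group in both, and without libraries 6 the lowest EZH2i library, at 44.2 CPM, stood clear of the highest DMSO library. Its log2 fold change was 0.92 (SE 0.27, adjusted p = 0.0289), and 0.92 without both libraries numbered 6 (adjusted p = 1.12e-07). The call was lost without EZH2i library 1, 2, 3, 4 or 5 or DMSO library 1 or 3 (adjusted p 0.0518 to 0.068). Cacng6, a gamma subunit, was too low to test and is named because its groups did not overlap. It had 34 counts in EZH2i and 1 in DMSO (ratio 28.4, interval 4.76 to 1154).

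TRP channels are cation channels gated by lipids, temperature, stretch or metabolites. Of 7 Trpc genes 2 were tested and Trpc1 rose; of 8 Trpm genes 3 were tested and Trpm1 rose; of 6 Trpv genes 2 were tested and Trpv4 rose. Trpc1 (chr9:95705082-95750375, minus strand), a subunit of receptor-operated cation channels, had 2.01, 3.78 and 4.32 CPM in EZH2i (lowest, median, highest), against 0.432, 0.735 and 1.29 CPM in DMSO. The groups did not overlap, with EZH2i library 6 the nearest to DMSO. In the fit the log2 fold change was 2.17 (SE 0.27, adjusted p = 9.81e-05), and the gene was called in all 20 alternative settings.

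Trpm1 (chr7:64153835-64269775, plus strand), known from retinal bipolar cells and melanocytes, had 2.68, 3.57 and 4.31 CPM in EZH2i (lowest, median, highest), against 1.37, 1.99 and 2.81 CPM in DMSO. The groups overlapped slightly, and for each of the 6 replicate numbers the EZH2i library was higher. On the log2 scale the change was 0.77 (SE 0.18, adjusted p = 0.00914). Trpm7, a magnesium-permeable channel fused to a kinase, averaged 152 ± 11 CPM in EZH2i and 162 ± 15 CPM in DMSO (log2 fold change -0.10, adjusted p = 0.385). Trpm4, a sodium-permeable channel opened by calcium, averaged 11.1 ± 1.48 CPM in EZH2i and 9.16 ± 1.08 CPM in DMSO, with an adjusted p of 0.11, of 0.0403 with the block and of 0.0373 without EZH2i library 6. Trpm2, gated by ADP-ribose, was not tested, with 37 counts in EZH2i and 6 in DMSO.

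Trpv4 (chr5:114622152-114658421, minus strand), a channel sensitive to osmotic swelling and warmth, had 0.495, 0.805 and 1.12 CPM in EZH2i (lowest, median, highest), against 0, 0.323 and 0.515 CPM in DMSO. Only EZH2i library 6 lay inside the DMSO range. The log2 fold change was 1.37 (SE 0.40, adjusted p = 0.0277), and the call was lost without EZH2i library 2, 3 or 5 or DMSO library 1 or 5 (adjusted p 0.0522 to 0.0687). Trpv2, another Trpv channel, had the third highest level of all channel genes per length, at 30 CPM per kb in EZH2i and 35.2 CPM per kb in DMSO. It had 115, 137 and 148 CPM in EZH2i (lowest, median, highest), against 121, 165 and 173 CPM in DMSO. EZH2i was lower for each of the 6 replicate numbers. Its log2 fold change was -0.23 (SE 0.094, adjusted p = 0.107), and it was called lower with the block (adjusted p = 0.00191) and without DMSO library 6 (adjusted p = 0.0114).

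Of the 2 Piezo genes, which encode pressure-gated channels, Piezo2 had no count and Piezo1 was well expressed. Piezo1 had 59.3, 66.4 and 100 CPM in EZH2i (lowest, median, highest), against 80.4, 89.5 and 130 CPM in DMSO. Library 6 was the highest of each group, and the remaining 5 EZH2i libraries were all below the DMSO libraries. Its log2 fold change was -0.41 (SE 0.14, adjusted p = 0.0601). Piezo1 was called lower with the block (adjusted p = 2.3e-05), without EZH2i library 6 (adjusted p = 0.00247) and by DESeq2 (adjusted p = 0.035). The antisense gene Ctu2 covers 24.6% of the Piezo1 exons, and its own level was 20.9 CPM in EZH2i and 21.2 CPM in DMSO.

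The 6 ClC genes encode chloride channels and chloride-proton exchangers, of which 5 were tested and 0 called. Clcn3, an exchanger of endosomes, had 68.8, 70.6 and 121 CPM in EZH2i (lowest, median, highest), against 68.1, 73.4 and 154 CPM in DMSO. Both maxima were library 6, and the groups overlapped throughout (log2 fold change -0.13, SE 0.21, adjusted p = 0.731). Clcn2, a plasma membrane chloride channel, averaged 2.57 ± 0.318 CPM in EZH2i and 2.09 ± 0.373 CPM in DMSO (SD, n = 6 each; adjusted p = 0.207). Clcn5 was called higher only in the blocked fit (adjusted p = 0.017) and the blocked fit without libraries 6.

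**Figure D4:**
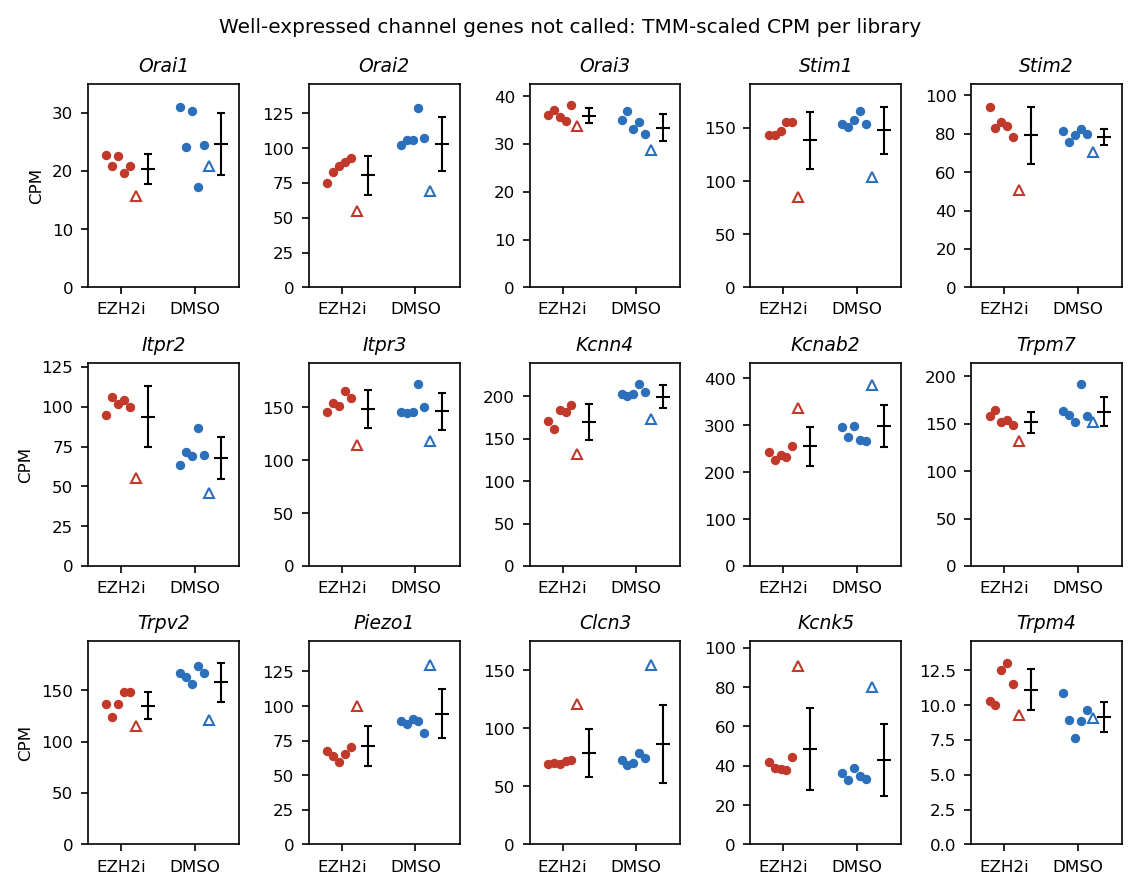
TMM-scaled CPM (vertical axis) in each EZH2i library (left) and DMSO library (right) for 15 well-expressed channel genes that were not called; circles are libraries 1 to 5, open triangles library 6, and black bars the mean and SD of 6. For Orai2, Kcnn4, Kcnab2, Trpv2 and Piezo1 the EZH2i circles sit below the DMSO circles while library 6 lies apart in one or both groups.

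In the blocked fit the 7 genes called lower were Trpv2, Kcnk7, Kcnab2, Orai1, Orai2, Kcnn4 and Piezo1. Without both libraries numbered 6, 22 were called higher and 5 lower (Trpv2, Kcnab2, Orai2, Kcnn4 and Piezo1), against 23.9% higher and 20.9% lower over all tested genes. All 13 calls of the unblocked fit were kept in both. The share called lower among the 50 channel genes was thus below the share of all genes in both fits, and the share called higher above it. Shares by level were not computed for these fits. Of the 50 channel genes, 25 had a mean of at most 8.61 CPM, as did 2932 of all 11727 tested genes. In the unblocked fit 30.0% of all genes in that range were called higher, against 7.71% above it. The differences in share are therefore not read as particular to channels. The 5 genes lower in both fits are among the 15 channel genes with the highest mean CPM, and 10 of the 13 genes that rose had a mean of at most 8.61 CPM.

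All 171 genes summed to 1902 ± 80.8 CPM in EZH2i and 1929 ± 65.2 CPM in DMSO (SD, n = 6 each), a difference smaller than either SD. The 10 genes with the highest level per length were Kcnab2, Kcnn4, Trpv2, Kcna3, Itpr3, Orai3, Stim2, Orai2, Trpm7 and Stim1. Of these only Kcna3 was called.

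**Figure D5:**
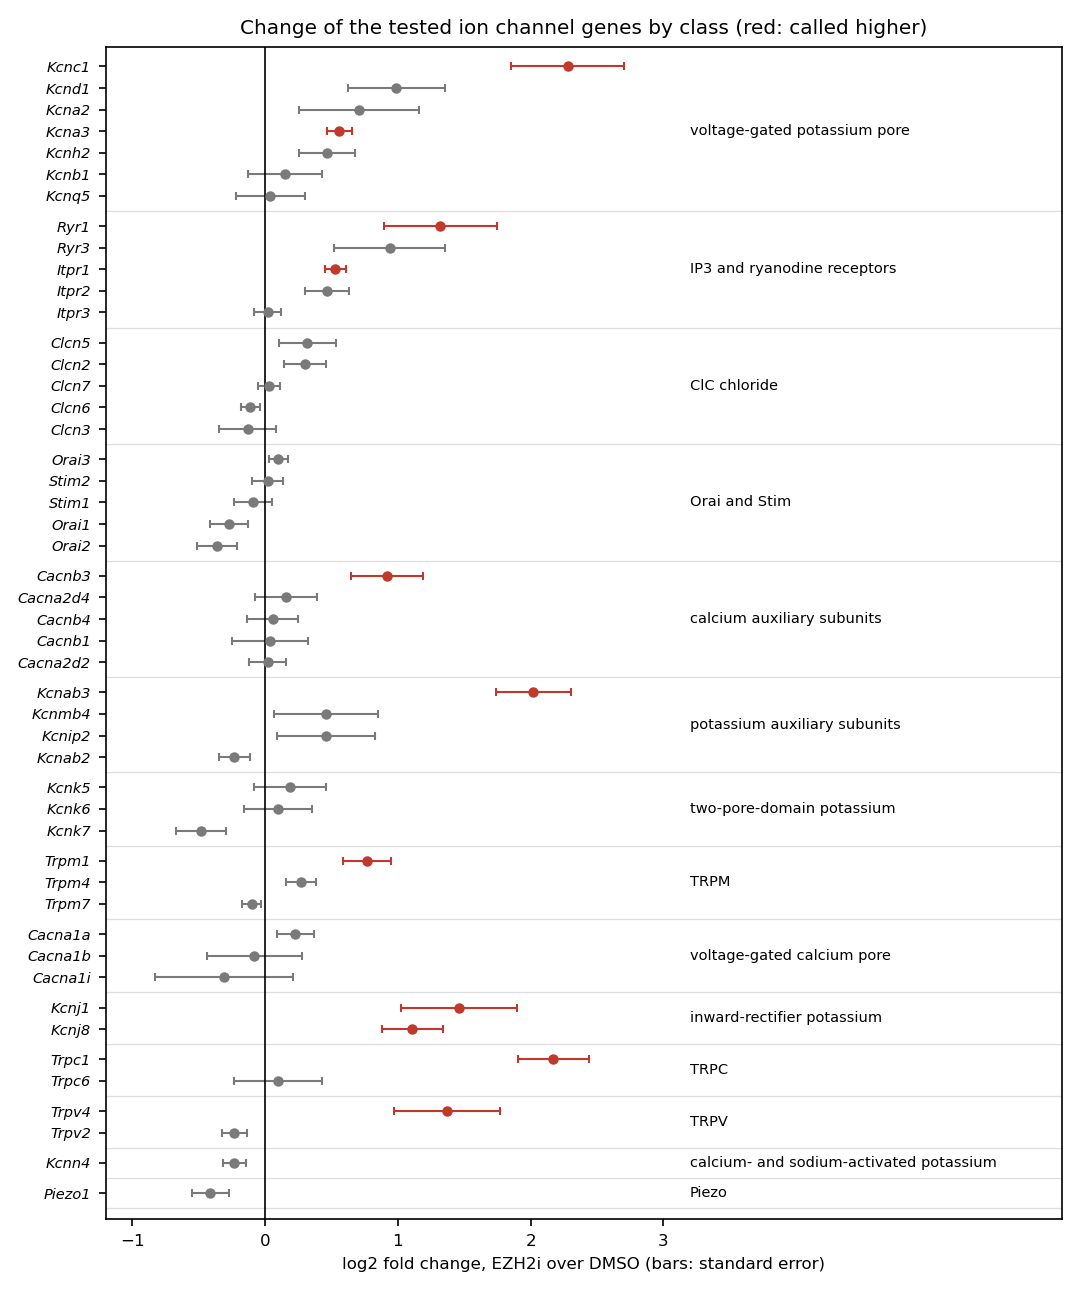
Log2 fold change, EZH2i over DMSO (horizontal axis), with its standard error for the tested channel genes, grouped by class and sorted within a class; red points were called higher. All 7 voltage-gated potassium pores and all 5 tested IP3 and ryanodine receptors lie to the right of 0. The sodium channel classes are not drawn.

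The promoters found for the genes that rose were of more than one kind. Polycomb complexes are known to gather at promoters rich in CG pairs, and whether they act at these genes was not tested. RefSeq promoter windows (GRCm38.p6, 250 bases before to 50 after a start) were found for 131 of the 171 genes and for 9 of the 13 that rose. A window was counted as CG-rich with at least 50% G and C and an observed over expected CG ratio of at least 0.6, a count in which both strands are equal. This held for 5 of 11 windows of the genes called higher (45.5%), 24 of 41 windows of tested genes not called (58.5%) and 30 of 121 windows of genes not tested (24.8%). Over all promoter windows it held for 33.5%, over those of all tested genes for 67%, and over those of all genes called higher for 59.5%. The windows of Kcnc1 (chr7:46396218-46396517, plus strand, 41 CG pairs), Kcna3 (chr3:107035912-107036211, plus strand, 37 CG pairs), Trpc1 (chr9:95750299-95750598, minus strand, 22 CG pairs) and Kcnj1 (chr9:32393735-32394034, plus strand, 2 CG pairs) show the span among genes that rose, 5′ to 3′ with each CG in capitals.
Kcnc1: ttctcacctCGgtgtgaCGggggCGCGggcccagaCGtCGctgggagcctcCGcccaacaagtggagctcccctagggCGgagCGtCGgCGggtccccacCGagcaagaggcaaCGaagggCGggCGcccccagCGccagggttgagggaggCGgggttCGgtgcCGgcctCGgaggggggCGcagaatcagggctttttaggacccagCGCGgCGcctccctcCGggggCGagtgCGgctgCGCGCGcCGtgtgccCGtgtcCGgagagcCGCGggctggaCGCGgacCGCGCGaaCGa
Kcna3: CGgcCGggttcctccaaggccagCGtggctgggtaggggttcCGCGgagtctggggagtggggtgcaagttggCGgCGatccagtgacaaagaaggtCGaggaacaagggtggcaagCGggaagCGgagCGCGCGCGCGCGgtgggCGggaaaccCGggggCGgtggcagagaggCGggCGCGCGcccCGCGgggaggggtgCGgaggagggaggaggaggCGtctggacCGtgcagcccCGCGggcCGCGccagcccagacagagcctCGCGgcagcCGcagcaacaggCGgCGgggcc
Trpc1: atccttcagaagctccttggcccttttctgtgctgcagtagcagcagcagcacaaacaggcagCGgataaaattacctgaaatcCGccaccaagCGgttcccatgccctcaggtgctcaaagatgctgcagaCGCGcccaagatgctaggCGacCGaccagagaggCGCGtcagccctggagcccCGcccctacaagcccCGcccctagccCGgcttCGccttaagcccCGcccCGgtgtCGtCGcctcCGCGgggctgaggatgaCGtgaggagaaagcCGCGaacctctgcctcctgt
Kcnj1: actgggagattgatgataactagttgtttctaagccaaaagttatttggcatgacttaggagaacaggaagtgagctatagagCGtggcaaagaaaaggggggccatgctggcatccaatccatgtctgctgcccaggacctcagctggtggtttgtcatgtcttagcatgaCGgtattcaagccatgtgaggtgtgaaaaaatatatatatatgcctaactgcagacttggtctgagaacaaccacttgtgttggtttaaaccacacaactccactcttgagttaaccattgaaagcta
The Kcnj1 window lies at a start inside the annotated gene, downstream of the gene's first base, whereas the windows of Kcnc1, Kcna3 and Trpc1 cover the gene start. Histone methylation was not measured in these data, and no binding is read from the letters.

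Kcnt2, a sodium-activated potassium channel, had 1 to 6 counts in each EZH2i library (29 in all) and 0 in every DMSO library. Against a floor of 3 counts over the DMSO group this is at least 8.07-fold higher. Scn4b, a beta subunit of sodium channels, had 37 counts in EZH2i and 7 in DMSO, a ratio of 4.41 relative to library size (interval 1.94 to 11.7). Together with Cacna1g and Cacng6 these are the 4 genes below the filter whose groups did not overlap. They were picked on this outcome, so their ratios and intervals are descriptions and not tests. Without the filter, 17 of 118 channel genes were called higher, among them Kcnt2, Cacna1g and Cacng6. The share of all genes called in that fit was not computed, nor was the share of all genes below the filter without overlap. The 68 channel genes with counts but no test had a higher mean CPM in EZH2i in 51 cases and in DMSO in 17, and no group mean was above 0.604 CPM. This split was not computed over all untested symbols. Tested genes of low level also leaned to EZH2i, with 0.66 as the log2 median in the lowest of 20 bins. The 51 cases are therefore not read as particular to channels.

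Of 31 partners of the calcium pathway that are not channels, 29 were tested, 4 were called higher and 3 lower, beside 13.3% higher and 6.05% lower over all tested genes. Their median log2 fold change was -0.07. With the block 7 were called higher and 9 lower, beside 24.7% higher and 24.3% lower over all tested genes, so these counts are near the shares of all genes. Atp2b4, a plasma membrane calcium pump, averaged 174 ± 26.9 CPM in EZH2i and 103 ± 12.6 CPM in DMSO (log2 fold change 0.75, adjusted p = 0.000506). Plcg2, a phospholipase C gamma, averaged 38.3 ± 10.9 CPM in EZH2i and 19.7 ± 8.5 CPM in DMSO (adjusted p = 0.0134). The calcineurin catalytic subunit Ppp3ca and the calcineurin inhibitor Rcan1 also rose, with log2 fold changes of 0.36 and 0.29. Among those that fell were the calcineurin regulatory subunit Ppp3r1 and the mitochondrial carrier Letm1, with log2 fold changes of -0.18 and -0.30. Among 40 other channels outside the symbol families, 24 were tested, 6 were called higher (Lrrc8b, Lrrc8d, P2rx3, P2rx4, Mcoln3 and Ano10) and 2 lower (Ano8 and Clic1), beside the same 13.3% and 6.05% of all genes. Their median log2 fold change was 0.13. With the block 9 were called higher and 5 lower, beside 24.7% and 24.3% of all genes. Lrrc8d, a subunit of the volume-regulated anion channel, averaged 100 ± 19.8 CPM in EZH2i and 65.8 ± 5.96 CPM in DMSO (adjusted p = 0.00495; SD, n = 6 for each gene).

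Several of the channels that rose are known from nerve or muscle, so markers of other cells were measured beside them. Of 5 neuron markers Syt1 was at 0, 2 were tested and Tubb3 fell, with sums of 5.57 to 9.11 CPM in EZH2i and 8.08 to 10.6 CPM in DMSO. Of 5 striated muscle markers Myh1 and Myog were at 0 and 0 of 1 tested was called, with sums of 3.28 to 9.42 CPM in EZH2i and 3.69 to 9.72 CPM in DMSO, nearly all from Actn2. The 5 NK cell markers summed to 95.7 to 306 CPM in EZH2i and 48.8 to 124 CPM in DMSO, nearly all from Eomes. Eomes averaged 140 CPM in EZH2i and 70.5 CPM in DMSO, so the sum mainly follows this 1 gene. Klrb1c and Eomes rose, of 3 tested, while Klre1 was not called (3.39 CPM in EZH2i and 3.43 CPM in DMSO). Klra8 was at 0 and Ncr1 near it. Itgam rose among 6 monocyte or macrophage markers (2 tested, sums 6.38 to 18.5 CPM in EZH2i and 4.29 to 10.8 CPM in DMSO) and Itgax among 5 dendritic cell markers (1 tested, sums 1.3 to 3.77 CPM in EZH2i and 0.179 to 1.69 CPM in DMSO), while Csf1r and Flt3 were at 0.11 CPM or less in every library. Zbtb7b rose among 4 CD4 T cell markers (2 tested, sums 23.8 to 34.8 CPM in EZH2i and 17.4 to 23 CPM in DMSO), with Cd4 itself at 0.345 CPM or less. Of the B cell markers (5 in the tables) 0 of 1 tested was called, with sums of 14.8 to 21.8 CPM in EZH2i and 19.2 to 25.2 CPM in DMSO. Of 4 platelet markers 0 of 1 tested was called, with sums of 1.42 to 3.63 CPM in EZH2i and 0.476 to 2.55 CPM in DMSO. Neutrophil markers (4 in the tables) reached 0.173 CPM in EZH2i and 0.277 CPM in DMSO, and the 4 erythroid markers, with Hbb-bs and Hba-a1 at 0, reached 0.302 CPM in EZH2i and 0.693 CPM in DMSO. With the replicate block, Cd8b1 and Cd79b were also called lower and Foxp3 and Itga2b higher. The part of other cells in the channel results was not tested.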

How the data were processed

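Stranded polyA libraries (Illumina TruSeq, single-end, NextSeq, per the labels' protocols) were deposited as 1 table each of raw counts by gene symbol. The submitters' processing notes name featureCounts, TopHat2 2.1.1, SAMtools 1.9, Trimmomatic 0.38 and FastQC 0.11.7 and the build GRCm38 (mm10). The annotation, the strand setting and the handling of multi-mapped reads are not stated in these sources, so overlapping genes, antisense genes and close relatives are uncertain.

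Counts were tested in R 4.3.3 with edgeR 4.0.16: filterByExpr at its defaults (11727 genes, CPM limit 0.409), TMM scaling, and the two-sided quasi-likelihood test on the group alone over all 12 libraries, with calls at an adjusted p under 0.05 (Benjamini-Hochberg). DESeq2 1.42.0, other scalings and filters, the replicate block and left-out libraries were alternatives. Levels per length use exon unions of GENCODE M21, and all 171 symbols matched. Intervals and floors cover counting error only.

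The genes and lists were chosen with earlier results of these data known. Named genes are the members called, the 15 with the highest mean CPM, a set known in T cells, the member with the smallest p in classes without a call, and untested members whose groups do not overlap; others are named as chosen after their values were seen, which also holds for the genes called in the blocked fit alone. Ion channel genes outside the symbol families are described by counts. The results of a few listed genes are not reported here by name, though they enter the counts.

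The labels number the libraries of both groups 1 to 6 without explaining the number. Across genes, the deviation of an EZH2i library from its group mean correlated with that of the DMSO library of equal number. The r values were 0.213, 0.445, 0.286, 0.527, 0.317 and 0.847, all over the limit of 0.1 set for pairing by number. The main fit does not use the pairing, and the replicate block is an alternative. Only 3 of the 6 numbers had their own partner as the best match. Leaving out number 6 brought the lowest r to 0.0371, under this limit, so the pairing of numbers 1 to 5 is not settled. Statements that EZH2i was higher or lower for each replicate number are descriptions. The share of all genes for which this held was not computed. Replicates differed by more than sampling noise (chi-square per degree of freedom at least 4.79).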

Additional observations from a re-analysis of the deposited data

Results flagged for a closer look

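Single libraries that lay far from the other 5 of their group were found 21 times in 64 groups looked at, where chance gives about 1 in 20 groups. Of these, 11 were EZH2i library 6 and 8 DMSO library 6. EZH2i library 6 was low for Kcnab3 (1.39 CPM, the others at least 3.93), Cacnb3 (19.2 CPM, the others at least 44.2), Kcnc1 (2.69 CPM, the others at least 11.1), Stim1 (85 CPM, the others at least 143), Stim2 (50.6 CPM, the others at least 78.4) and Itpr2 (55.3 CPM, the others at least 94.7). It was high for Ryr1 (2.17 CPM, the others at most 1.01), Kcnab2 (338 CPM, the others at most 256), Piezo1 (100 CPM, the others at most 70.6), Clcn3 (121 CPM, the others at most 72.4) and Kcnk5 (90.7 CPM, the others at most 44.3).

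DMSO library 6 was low for Cacnb3 (9.17 CPM, the others at least 23), Kcnn4 (173 CPM, the others at least 200), Trpv2 (121 CPM, the others at least 156) and Stim1 (104 CPM, the others at least 151). It was high for Kcnab2 (386 CPM, the others at most 299), Piezo1 (130 CPM, the others at most 90.6), Clcn3 (154 CPM, the others at most 78.3) and Kcnk5 (80 CPM, the others at most 38.9). For Cacnb3, Kcnab2, Stim1, Piezo1, Clcn3 and Kcnk5 both libraries 6 deviated in the same direction. The labels do not say what the number 6 stands for, and the source of the deviation was not tested. The other 2 were Trpm7 in DMSO library 4 (192 CPM, the others at most 163) and Clcn2 in DMSO library 2 (1.36 CPM, the others at least 2.1).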

How the results depend on the processing

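The 32 tested genes that are named were set against 20 alternatives, which gave 637 comparisons. Direction and side of the threshold were kept in 551, a call was gained in 44, lost in 30, and the sign turned in 12, all in genes that were not called. Of the 13 genes called higher, 8 were called under every alternative, among them Kcnab3, Kcna3, Itpr1, Kcnj8, Kcnc1, Trpm1 and Trpc1. The number called higher was 23 with the replicate block, 22 without both libraries numbered 6, 24 with the block and without both (added after the data were seen), and 8 to 17 when 1 library was left out, lowest without EZH2i library 3. The number called lower was 2 with DESeq2, 7 with the block, 5 without both libraries numbered 6, 7 with the block and without both, and 0 to 3 when 1 library was left out (2 without EZH2i library 6, 3 without DMSO library 6). Channel genes detected per library averaged 53 in EZH2i and 45.8 in DMSO at 10 counts, 44 in EZH2i and 39.3 in DMSO at 1 CPM, and 88 in EZH2i after thinning. The log2 fold changes that turned sign were Stim2 with the block (-0.0038) and without 1 library (-0.04 to 0.12 over all omissions), Itpr3 (-0.04 to 0.08), Stim1 (-0.18 to 0.01), Clcn3 (-0.29 to 0.12) and Kcnk5 (-0.09 to 0.46). No scaling moved the median over all genes by more than 0.1. The cause of these changes was not tested. Genes under 1 CPM rest on few counts per library, which limits the differences that can be detected for them.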
